A study of Homo sapiens with 16 samples.

Results

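A set of 7 genes of antigen-receptor assembly was followed across 4 human immune cancer lines, before and after stimulation. They were RAG1, RAG2, DNTT, PTCRA, VPREB1, IGLL1 and VPREB3, chosen by symbol as the recombinase and the pre-receptor chains, and all 7 of 7 were found among the 27311 genes of the deposited files. Each had at least 1 TPM (transcripts per 1000000, a level corrected for gene length) in 2 or more libraries and so entered the 14398 genes tested. RAG1 reached that level in untreated Jurkat alone, and RAG2 and DNTT in the Jurkat groups alone. RNA was sequenced from 16 libraries in 8 groups of 2. Stimulation lasted 4 hours. THP-1, a monocytic line here carrying dCas9-KRAB (a Cas9 that does not cut, joined to a repressor domain) in all its libraries, received LPS at 1 µg/ml or was left untreated. U937, a wild-type monocytic line, received LPS at 200 ng/ml or was left untreated. Jurkat, a wild-type T cell line, received anti-CD3 at 5 µg/ml with PMA, a phorbol ester that activates protein kinase C, at 100 ng/ml or was left untreated. BJAB, a wild-type B cell line, received anti-IgM at 10 µg/ml with anti-CD40 at 4 µg/ml or was left untreated. Each line is a single transformed line, and the labels do not say whether its 2 libraries per group came from separate cultures, so p-values measure the spread between libraries, which may be technical.

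Developing lymphocytes build their receptors by V(D)J recombination. RAG1 and RAG2 form the recombinase: RAG1 carries the DNA-cutting site, and RAG2 reads a histone mark of active chromatin and is needed for cutting. DNTT, the terminal transferase, adds untemplated nucleotides at the joins. In thymocytes the invariant chain encoded by PTCRA pairs with the first rearranged beta chain to form the pre-T cell receptor. In B progenitors VPREB1 and IGLL1 together form the surrogate light chain of the pre-B cell receptor, and VPREB3 encodes a related protein of the B lineage. Apart from VPREB3, expression of these genes is confined in normal tissue mainly to progenitor stages. Signalling through a completed receptor is known to lower RAG expression in developing lymphocytes.

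The sequences just upstream of 6 of the genes are shown because 5 of these genes were expressed in the same Jurkat cells, while VPREB3 was expressed in BJAB. They are the parts of the 250 bases before each RefSeq start (GRCh38.p14) that lie outside annotated GENCODE exons: chr11:36598280-36598486 on the minus strand for RAG2, chr22:22244536-22244674 on the plus strand for VPREB1, chr10:96304184-96304395 on the plus strand for DNTT, chr6:42915803-42915988 on the plus strand for PTCRA, chr22:23580309-23580540 on the minus strand for IGLL1 and chr22:23754469-23754675 on the minus strand for VPREB3. Capitals mark the E-box CANNTG, the core letters read by E proteins such as E2A. RAG1 is not shown and not searched for letters below, because the upstream part of its window overlaps an exon of the neighbouring gene TRAF6.
RAG2: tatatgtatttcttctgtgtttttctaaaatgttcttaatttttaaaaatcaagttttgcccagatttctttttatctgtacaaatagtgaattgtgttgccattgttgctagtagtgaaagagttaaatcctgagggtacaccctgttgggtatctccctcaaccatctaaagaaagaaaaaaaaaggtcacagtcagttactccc
VPREB1: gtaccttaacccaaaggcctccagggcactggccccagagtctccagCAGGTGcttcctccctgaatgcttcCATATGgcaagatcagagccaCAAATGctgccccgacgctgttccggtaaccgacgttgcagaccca
DNTT: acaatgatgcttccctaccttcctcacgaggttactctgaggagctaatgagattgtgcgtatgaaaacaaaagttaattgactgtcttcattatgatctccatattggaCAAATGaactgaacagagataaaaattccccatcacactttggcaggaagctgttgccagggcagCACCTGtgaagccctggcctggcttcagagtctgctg
PTCRA: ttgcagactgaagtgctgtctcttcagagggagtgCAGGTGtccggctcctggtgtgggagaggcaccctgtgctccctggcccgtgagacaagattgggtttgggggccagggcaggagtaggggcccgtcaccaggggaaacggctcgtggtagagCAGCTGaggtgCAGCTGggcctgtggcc
IGLL1: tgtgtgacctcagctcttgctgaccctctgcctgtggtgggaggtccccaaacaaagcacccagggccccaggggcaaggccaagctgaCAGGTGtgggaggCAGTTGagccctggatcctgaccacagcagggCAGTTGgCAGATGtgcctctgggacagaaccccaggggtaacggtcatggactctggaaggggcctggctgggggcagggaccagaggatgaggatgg
VPREB3: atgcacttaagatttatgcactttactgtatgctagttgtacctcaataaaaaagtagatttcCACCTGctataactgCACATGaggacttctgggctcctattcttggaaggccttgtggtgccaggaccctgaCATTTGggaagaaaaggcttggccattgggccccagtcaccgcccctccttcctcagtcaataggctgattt

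Letters of CANNTG read the same on both strands, and at least 1 match lay in 61.8% of all 35116 RefSeq windows of 250 bases, with a median of 1. RAG2 had 1 match in its 250 bases, DNTT had 2, VPREB1 and VPREB3 had 3, PTCRA had 4 and IGLL1 had 5. One match each of RAG2, PTCRA and IGLL1 lies outside the stretch shown. At least 3 matches were present in 10.4% of all windows, at least 4 in 3.35% and at least 5 in 0.888%. The narrower letters CAGGTG, a case of CANNTG searched on both strands, occurred once each in DNTT, PTCRA, VPREB1, IGLL1 and VPREB3 and in 17.5% of all windows, and had no match in RAG2. The GATA letters AGATAA matched in RAG2 and DNTT, against 9.17% of all windows. RUNX letters TGTGGT matched 2 times each in IGLL1 and VPREB3 and in 10.98% of windows. The Ikaros letters TGGGAA matched 2 times in VPREB3 and in 20.9% of windows, and the ETS letters GGAAG matched in DNTT, VPREB1, IGLL1 and VPREB3 and in 65.1% of windows. Neither the forkhead letters GTAAACA (2.98% of windows) nor TATAAA (10.7%) matched in any of the 6 windows. These matches describe letters, not occupied sites.

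The depth that the TPM steps imply was 4125221 to 8431295 reads per library. Lineage markers were those of the labelled lines: 10 T lineage genes summed to 7286 to 7398 TPM in stimulated Jurkat and 5464 to 5761 TPM in untreated Jurkat, against at most 104.5 TPM in any other library. A set of 10 B lineage genes summed to 2942 to 5411 TPM in stimulated BJAB and 7068 to 7350 TPM in untreated BJAB, against at most 256.5 TPM elsewhere. Among the monocytic genes, CD14 and MPO were under 1 TPM in all U937 libraries. Library 1 of U937 after LPS and library 1 of stimulated BJAB stood apart from their partners: over genes, log2 differences within the pair had an SD of 0.891 in U937 after LPS and 0.958 in stimulated BJAB, against 0.351 to 0.460 in the other 6 groups. Results were therefore also computed without these 2 libraries. In bulk RNA, fewer cells carrying a transcript and less of it per cell cannot be told apart.

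The lines were first compared before stimulation, to place each gene. Untreated Jurkat held 6 of the 7 genes, and all 7 differed from the mean of the other 3 untreated lines, 6 higher and VPREB3 lower, by limma on log2(TPM + 1) with Benjamini-Hochberg adjustment at 0.05. In the same comparison 38.0% of all tested genes were called (3172 higher and 2305 lower), so a call between lines is common. Levels are in TPM, and differences are on the log2(TPM + 1) scale, which depends on the pseudocount of 1 wherever a line is at 0. RAG1, RAG2 and DNTT passed the filter through Jurkat libraries alone, so their p-values for Jurkat against other lines are descriptions.

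RAG1, the cutting subunit, stood at 17.6 and 16.3 TPM in untreated Jurkat, at most 0.183 TPM in any THP-1 or U937 library, and 0 in all 4 BJAB libraries. The difference between untreated Jurkat and the other lines was 4.07 ± 0.14 (SE; adjusted p = 1.08e-09). RAG2 stood at 43.7 and 34.8 TPM in untreated Jurkat and at 0 in every other untreated library, a difference of 5.32 ± 0.14 (adjusted p = 1.55e-10). One RAG2 read was found outside Jurkat, at 0.0928 TPM in the first LPS library of THP-1. A count of 0 in the BJAB libraries allows up to 0.117 to 0.156 TPM of RAG1 and 0.273 to 0.364 TPM of RAG2 (3 reads per library). RAG2 thus exceeded RAG1 per unit length in both untreated Jurkat libraries, by 2.48 and 2.14 times.

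DNTT was the highest of the recombination genes in Jurkat, at 284 and 255 TPM untreated, and did not pass 0.502 TPM in any library of the other lines (7.95 ± 0.22, adjusted p = 2.12e-10). Both groups of Jurkat, and no others, held it at 1 TPM or more.

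PTCRA was shared between Jurkat and THP-1. Untreated Jurkat had 21.6 and 28.8 TPM (3.34 ± 0.23 against the other lines, adjusted p = 4.59e-07), untreated THP-1 had 6.40 and 6.61 TPM, untreated BJAB had 0.584 and 2.15 TPM from 2 and 8 reads, and U937 had 0 in all 4 libraries. Ordered by level, Jurkat untreated, Jurkat stimulated, THP-1 after LPS, THP-1 untreated and BJAB untreated did not overlap with their neighbours. In TPM, THP-1 lay below Jurkat and above BJAB and U937, whose low values pull down a mean of log2 levels. The comparison of untreated THP-1 with the log2 mean of the other 3 lines called 34.9% of tested genes. In it PTCRA was higher in THP-1 by 0.96 ± 0.23 (adjusted p = 0.00768). This call was lost without the first (adjusted p = 0.0582) or second (0.0667) untreated THP-1 library and at a pseudocount of 5 (0.23, adjusted p = 0.175). The T lineage marker sum in those THP-1 libraries was 13.2 to 14.8 TPM, with 9 of 10 markers under 1 TPM.

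Surrogate light chain genes were not confined to the B cell line. IGLL1 stood at 301 and 297 TPM in untreated Jurkat, 198 and 182 TPM in untreated BJAB and 74.2 and 91.1 TPM in untreated U937, while THP-1 had 0 and 0.573 TPM. These 4 lines did not overlap, and U937 was above THP-1 alone. THP-1, near 0, pulls down the mean of log2 levels that each other line is compared with. IGLL1 was above the mean of the other lines in Jurkat by 3.47 ± 0.30 (adjusted p = 2.96e-06), in BJAB by 2.60 ± 0.30 (adjusted p = 2.88e-05) and in U937 by 1.00 ± 0.30 (adjusted p = 0.0232); the BJAB comparison called 39.5% of tested genes and the U937 comparison 35.9%. In U937 the call held in 22 of 27 settings and was lost without the first (adjusted p = 0.0810) or second (0.186) untreated U937 library, without the first untreated THP-1 library (0.0514), with the replicate block (0.0557) and at a pseudocount of 5 (0.36, adjusted p = 0.324). IGLL5, a near copy of IGLL1 in the lambda light chain locus, stood at 1021 and 1064 TPM in untreated BJAB and at no more than 1.01 TPM in any library of the other lines. The files hold uniquely aligned reads, so reads from stretches that the copies share were left out, and IGLL1 in BJAB is less certain than in lines without IGLL5.

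VPREB1, the partner of IGLL1, was far lower. Untreated Jurkat had 14.99 and 24.0 TPM from 35 and 45 reads, untreated BJAB 2.10 and 5.80 TPM from 4 and 12 reads, and the untreated monocytic lines 0. Untreated Jurkat was above the other lines by 3.59 ± 0.44 (adjusted p = 4.70e-05) and above untreated BJAB by 2.12 ± 0.54 (adjusted p = 0.00944). The second of these calls held in 21 of 27 settings and was lost, among others, without the second untreated Jurkat library (adjusted p = 0.0832), without the first untreated BJAB library (0.106) and by voom (0.0702). IGLL1 differed between untreated Jurkat and untreated BJAB by 0.66 ± 0.37 (adjusted p = 0.226), which did not pass the test. That direct comparison of the lymphocyte lines called 31.8% of all tested genes and 6 of the 7, VPREB3 with the opposite sign from the other 5.

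VPREB3 was the one gene of the 7 with its highest level in BJAB. It stood at 1249 and 1400 TPM in untreated BJAB and at no more than 1.54 TPM, or 3 reads, in any library of another line (10.15 ± 0.37, adjusted p = 2.15e-09). It was also the highest value of the 7 in any line.

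**Figure D1:**
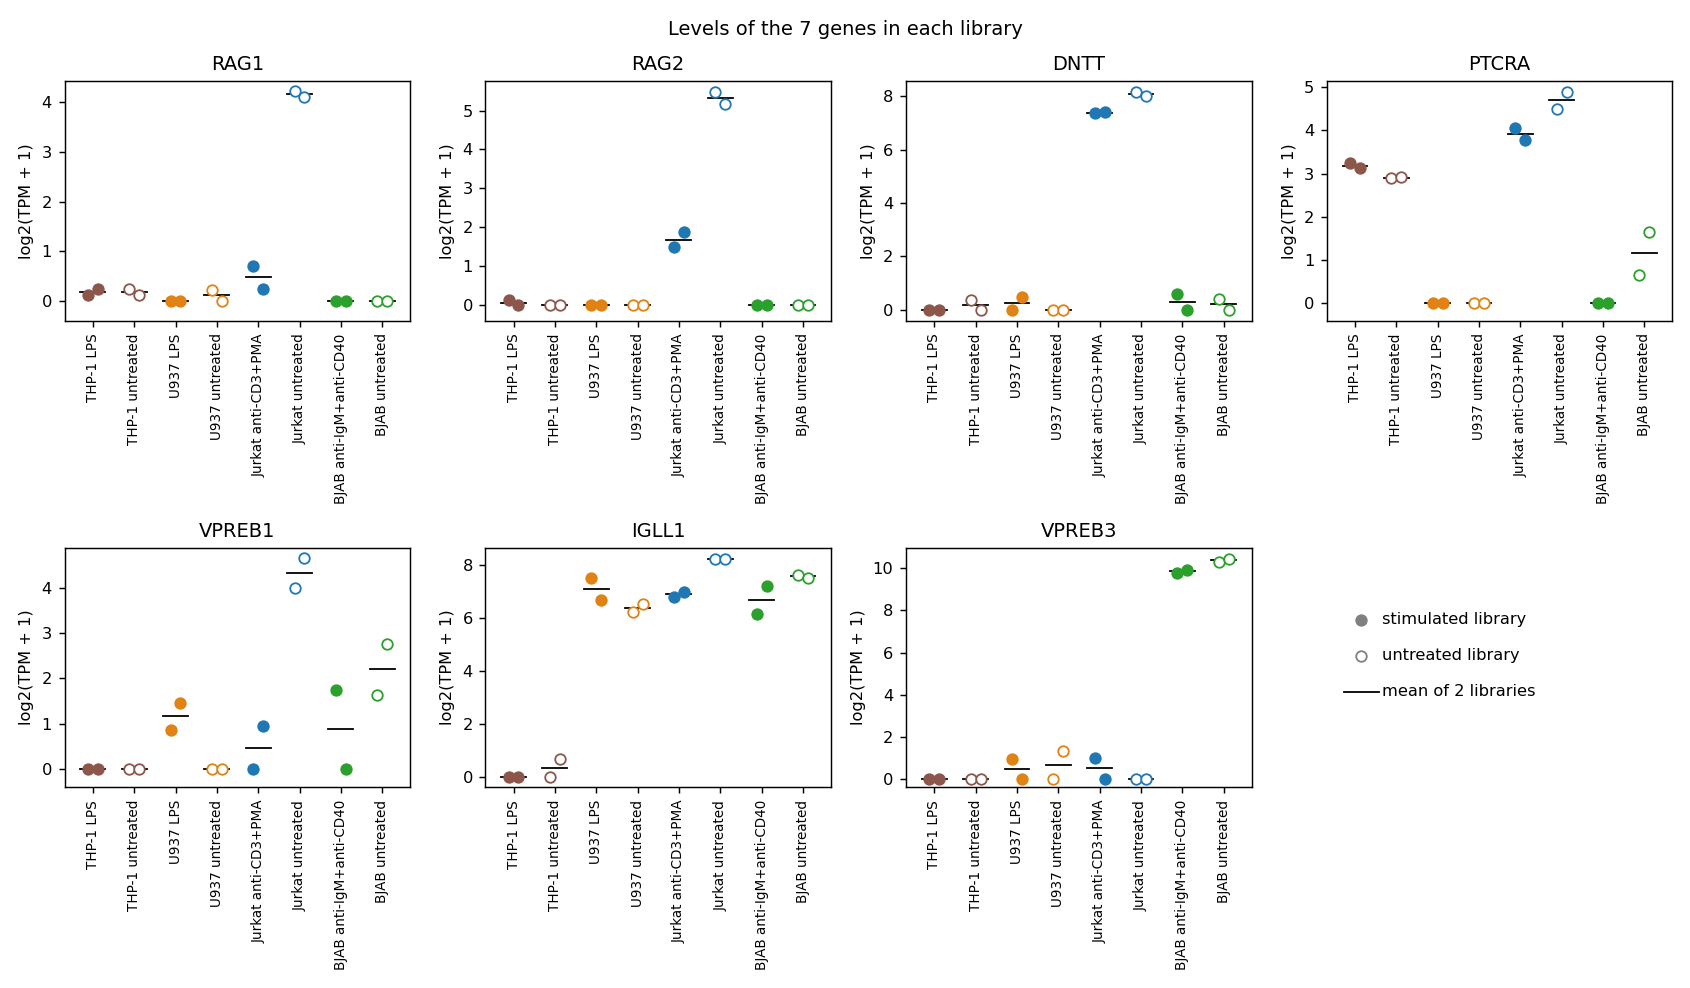
Levels of the 7 genes as log2(TPM + 1) in each of 16 libraries; filled dots are stimulated libraries, open dots untreated ones, and lines are means of 2. RAG1, RAG2 and DNTT are near 0 outside Jurkat, VPREB3 is near 0 outside BJAB, and RAG1, RAG2 and VPREB1 lie close to 0 or far below the untreated level in stimulated Jurkat.

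Stimulation of Jurkat through CD3 with PMA was then compared with untreated Jurkat. RAG1, RAG2 and VPREB1 fell, and they were the 3 lowest log2 differences of all 14398 tested genes. Of the 7 genes 3 were called, all lower, against 4.87% of tested genes called in either direction and 1.85% called lower. As the 7 genes were chosen with earlier results of these data known, the rank and these shares are a description. The other 3 genes expressed in Jurkat, IGLL1, PTCRA and DNTT, also had both stimulated libraries below both untreated ones, but did not pass the test.

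RAG1 had 0.637 and 0.182 TPM in stimulated Jurkat, from 14 and 4 reads, against 17.6 and 16.3 TPM in untreated Jurkat, from 417 and 309 reads. The stimulated libraries lay far below the untreated ones without overlap. Its change was -3.69 ± 0.17 (adjusted p = 1.70e-07). RAG1 passed the filter through untreated Jurkat alone, so this p-value is a description. Over the summed reads, stimulated cells kept 2.40% of the untreated level (95% interval 1.42 to 3.83%, exact binomial). This counting interval treats each read as independent, which reads are not. It can therefore be too narrow even for counting error.

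RAG2 had 1.80 and 2.66 TPM in stimulated Jurkat, from 17 and 25 reads, against 43.7 and 34.8 TPM in untreated Jurkat, from 443 and 283 reads. Again the 2 groups did not overlap, and the change was -3.64 ± 0.17 (adjusted p = 1.70e-07). Stimulated cells kept 5.61% of the untreated level (4.01 to 7.66%). The counting intervals of RAG1 and RAG2 did not overlap. They treat reads as independent and leave out the spread between libraries, and a difference between the falls of these genes was not tested. The ratio of RAG2 to RAG1 TPM was 2.83 and 14.6 in the stimulated libraries, against 2.48 and 2.14 in the untreated ones. The value of 14.6 rests on only 4 RAG1 reads.

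VPREB1 had 0 and 0.922 TPM in stimulated Jurkat, from 0 and 2 reads, against 14.99 and 24.0 TPM in untreated Jurkat. In each stimulated library 3 reads are worth 1.38 TPM, above both stimulated values. The change was -3.85 ± 0.54 (adjusted p = 0.000967), and the level kept was 2.42% with a wide interval of 0.288 to 9.04%. Fitted to the Jurkat libraries alone, this call was lost (adjusted p = 0.0795), while those of RAG1 and RAG2 remained.

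IGLL1 had 111 and 126 TPM in stimulated Jurkat and 301 and 297 TPM in untreated Jurkat. The level kept was 39.5% (36.2 to 43.2%), and the change of -1.33 ± 0.37 missed the threshold (adjusted p = 0.0737). PTCRA had 15.6 and 12.8 TPM in stimulated Jurkat and 21.6 and 28.8 TPM in untreated Jurkat, 57.2% of the untreated level (44.8 to 72.7%; -0.78 ± 0.29, adjusted p = 0.221). DNTT had 164 and 166 TPM in stimulated Jurkat and 284 and 255 TPM in untreated Jurkat, 61.0% of the untreated level (57.8 to 64.3%; -0.70 ± 0.26, adjusted p = 0.236). The counting intervals of RAG1, RAG2 and VPREB1 thus all lay below those of IGLL1, PTCRA and DNTT. Without the 2 libraries that stood apart, which enter only through the pooled spread, IGLL1 (adjusted p = 0.00176) and DNTT (adjusted p = 0.0486) were also called, with PTCRA still not.

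**Figure D2:**
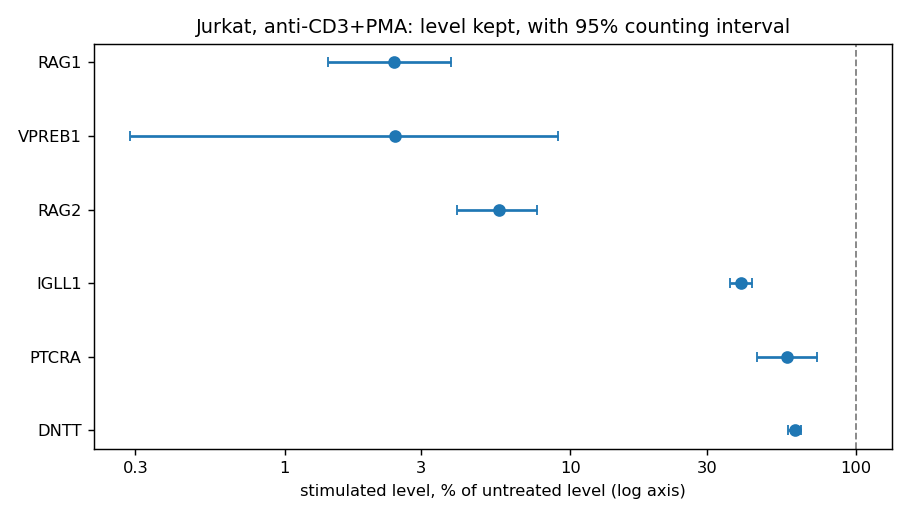
Level in Jurkat after anti-CD3+PMA as a percentage of the untreated level (log axis), from summed reads of 2 libraries per group, with 95% counting intervals; the dashed line is no change. RAG1, VPREB1 and RAG2 are at 2.40%, 2.42% and 5.61%, apart from IGLL1, PTCRA and DNTT at 39.5%, 57.2% and 61.0%.

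RAG1 and RAG2 are neighbours on chromosome 11, so the genes around them were read in the same libraries. Of 5 neighbours tested in Jurkat, 1 was lower and 4 were not called, with a median change of -0.17 beside -0.03 over all tested genes. The 1 was C11orf74 (IFTAP, also called NWC), whose annotation overlaps RAG2: it had 3.22 and 4.47 TPM in stimulated Jurkat and 14.5 and 11.5 TPM in untreated Jurkat (-1.54 ± 0.27, adjusted p = 0.00579). SmartSeq2 does not mark the strand, so reads in the overlap cannot be assigned to either gene. C11orf74 stood at 9.99 to 39.9 TPM in THP-1 and U937, where RAG2 was at or near 0, and at 0 in BJAB. TRAF6, an adaptor of Toll-like and TNF family receptors, had 9.14 and 11.5 TPM in stimulated Jurkat and 14.9 and 10.0 TPM in untreated Jurkat (-0.23 ± 0.43, adjusted p = 1). COMMD9 had 44.6 and 58.9 TPM in stimulated Jurkat and 56.6 and 59.4 TPM in untreated Jurkat (-0.17 ± 0.29, adjusted p = 1). PRR5L and LDLRAD3 were at 1.14 TPM or below in every Jurkat library.

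**Figure D3:**
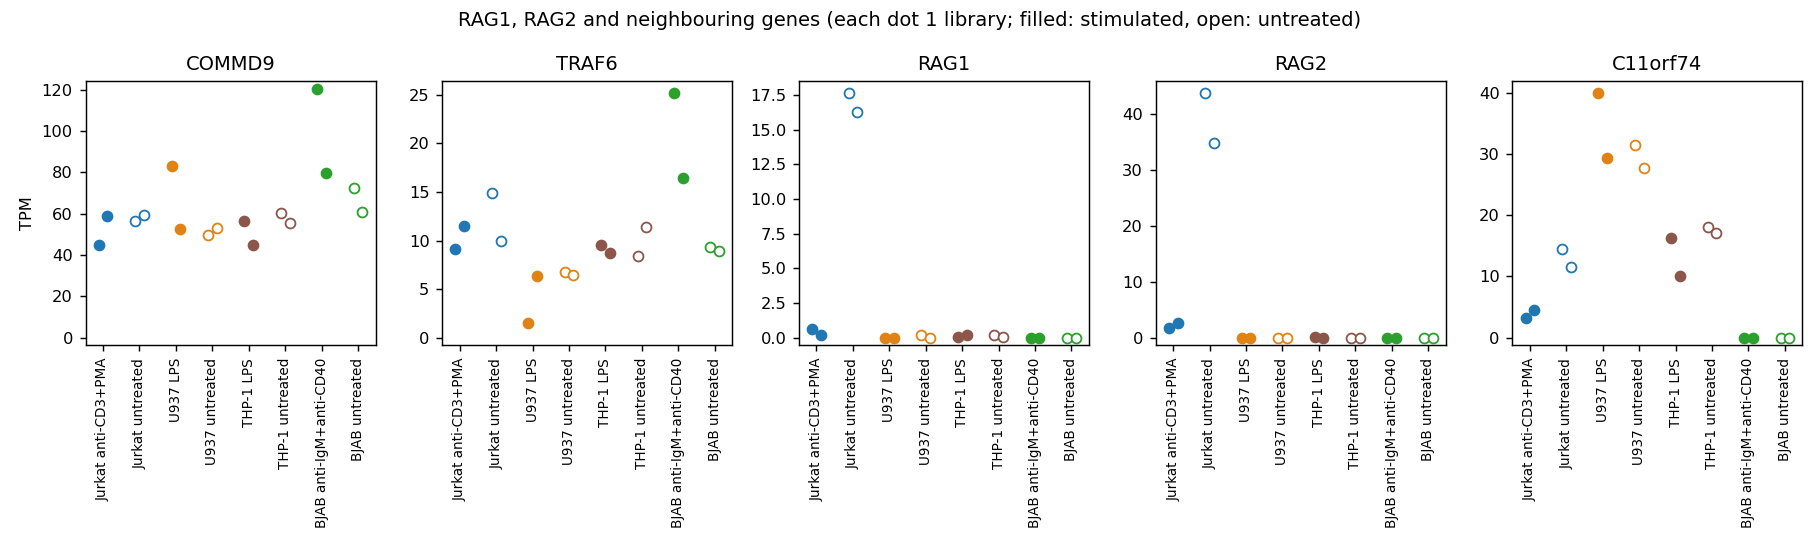
TPM of RAG1, RAG2 and 3 neighbouring genes in each library (own linear axis per gene; filled dots stimulated, open dots untreated). In stimulated Jurkat RAG1 and RAG2 are at 2.66 TPM or below, C11orf74 is at 3.22 and 4.47 TPM, and TRAF6 and COMMD9 overlap their untreated values.

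In BJAB, ligation of the B cell receptor and CD40 was compared with untreated BJAB. One of the 7 genes, PTCRA, was called, lower, against 6.40% of tested genes called and 4.76% called lower. PTCRA had 0 reads in both stimulated BJAB libraries, against 2 and 8 reads, or 0.584 and 2.15 TPM, in untreated BJAB (-1.16 ± 0.29, adjusted p = 0.0364). A count of 0 allows 0.657 and 0.691 TPM in the stimulated libraries, which is above the lower untreated value. Without the second untreated BJAB library the change was -0.66 and the adjusted p 0.271. The call was also lost without the first stimulated BJAB library (adjusted p = 0.162) and without the 2 libraries that stood apart (0.0801), and held in 11 of 27 settings.

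The 3 genes with larger counts in BJAB were not called. VPREB3 had 879 and 962 TPM in stimulated BJAB and 1249 and 1400 TPM in untreated BJAB, 69.3% of the untreated level (66.4 to 72.3%), with no overlap (-0.52 ± 0.45, adjusted p = 0.534). IGLL1 had 69.7 and 145 TPM in stimulated BJAB and 198 and 182 TPM in untreated BJAB (-0.91 ± 0.37, adjusted p = 0.167). IGLL5 had 460 and 734 TPM in stimulated BJAB and 1021 and 1064 TPM in untreated BJAB. VPREB1 had 2.37 and 0 TPM in stimulated BJAB, from 6 and 0 reads, and 2.10 and 5.80 TPM in untreated BJAB, which overlap (-1.32 ± 0.54, adjusted p = 0.161). In the first stimulated BJAB library IGLL1 differed from the mean of the controls by -1.43. Genes in the same bin, the highest 20% by transcript GC content, had a median of -1.06 there. In the second library the 2 values were -0.38 and -0.18. VPREB3, PTCRA and VPREB1 are in the same bin. They differed from the controls by -0.59, -1.16 and -0.45 in the first library and by -0.46, -1.16 and -2.20 in the second. Leaving out the second stimulated library gave a call for IGLL1 (-1.43, adjusted p = 0.0138). Leaving out the first gave a call for VPREB1 (-2.20, adjusted p = 0.0438). Each of these calls rests on 1 stimulated library, assumed to vary like the other groups.

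LPS was compared with no treatment in both monocytic lines. None of the 7 genes was called by limma in THP-1, where 0.167% of tested genes were called, or in U937, where 0.0278% were called, at 522 and 2176 genes with an unadjusted p under 0.05. No member was called in these lines by any of the other settings tried, voom included. PTCRA in THP-1 had 8.50 and 7.73 TPM after LPS and 6.40 and 6.61 TPM untreated, 125% of the untreated level with a counting interval of 86.3 to 181.7% (0.28 ± 0.29, adjusted p = 1). IGLL1 in U937 had 179 and 101 TPM after LPS and 74.2 and 91.1 TPM untreated (0.70 ± 0.37, adjusted p = 0.345). Its value of 179 TPM is in the library that stood apart, where the median difference from the controls was 0.11 over the shortest 20% of transcripts, to which IGLL1 belongs, and -0.85 to -0.38 in the other length bins. Without that library and its BJAB counterpart the change of IGLL1 was 0.30. VPREB1 in U937 had 2 and 4 reads after LPS, or 0.833 and 1.73 TPM, and 0 reads in both untreated libraries, whose floors of 3 reads are 2.47 and 1.39 TPM, the first above both of those values.

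**Figure D4:**
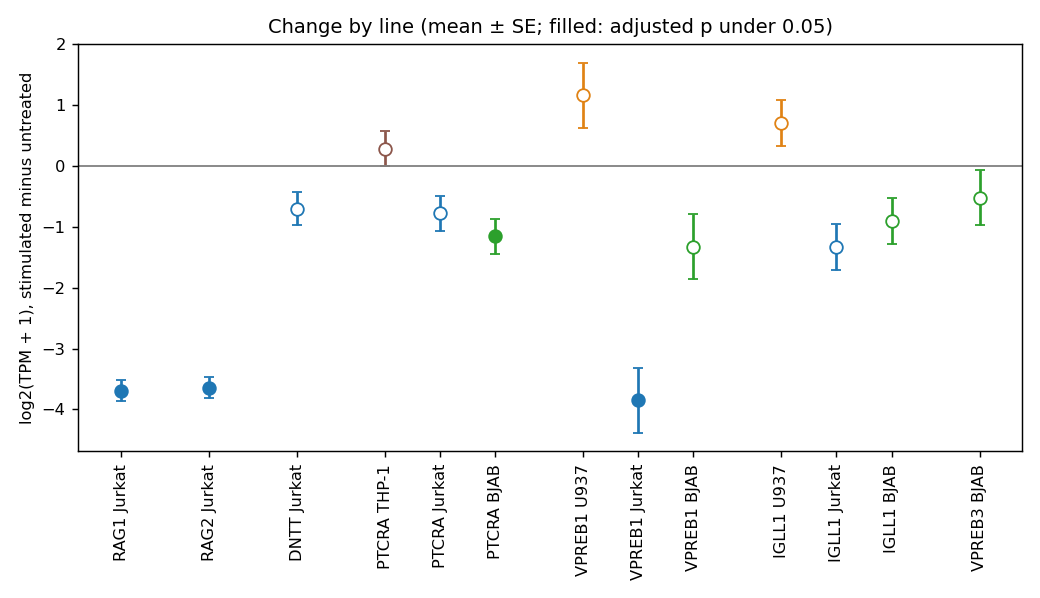
Change of each gene in log2(TPM + 1), stimulated minus untreated, with its SE, in every line where a group mean reached 1 TPM; filled symbols passed the adjusted threshold of 0.05. RAG1, RAG2 and VPREB1 in Jurkat lie between -3.85 and -3.64, and all other changes lie between -1.33 and 1.16.

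The difference between the Jurkat response and the BJAB response was tested directly. RAG1 (-3.69, adjusted p = 9.12e-06) and RAG2 (-3.64, adjusted p = 9.20e-06) passed, 2 of the 7 genes against 5.24% of tested genes. Both were at 0 in every BJAB library, so this test restates their Jurkat change. For the genes that both lines expressed, the responses were -3.85 in Jurkat and -1.32 in BJAB for VPREB1 (difference -2.53 ± 0.76, adjusted p = 0.0899) and -1.33 in Jurkat and -0.91 in BJAB for IGLL1 (difference -0.43 ± 0.53, adjusted p = 0.742). Neither difference passed the test.

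Other genes of the pathway were read from lists. In stimulated against untreated Jurkat, 13 of 22 activation genes rose and none was called lower, with a median change of 2.74 (16 higher and 1 lower without the 2 libraries that stood apart): the immediate-early factor EGR1 had 361 and 408 TPM stimulated and 5.77 and 5.20 TPM untreated (5.89 ± 0.30, adjusted p = 2.71e-07), and the IL-2 receptor chain IL2RA had 54.6 and 57.4 TPM stimulated and 1.04 and 0 TPM untreated.

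None of 18 tested cofactor and end-joining genes, which complete the joins that RAG opens, was called in Jurkat (median -0.09; 0 by limma, and 1 lower without the 2 libraries that stood apart). XRCC6, the Ku70 subunit that holds broken ends, had 1283 and 1398 TPM in stimulated Jurkat and 1450 and 1340 TPM in untreated Jurkat, and HMGB2, a DNA-bending cofactor of RAG, had 877 and 1007 TPM in stimulated Jurkat and 1112 and 1173 TPM in untreated Jurkat (-0.28 ± 0.14, adjusted p = 0.479).

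Among 35 tested regulators of early lymphocyte genes, 3 rose and 4 fell in Jurkat (median -0.06). ID2, an inhibitor of E proteins, rose to 45.0 and 59.95 TPM in stimulated Jurkat, against 6.94 and 3.82 TPM in untreated Jurkat (3.10 ± 0.41, adjusted p = 0.000621). RUNX3, a factor of the cytotoxic T lineage, rose to 13.6 and 12.8 TPM, against 1.87 and 3.06 TPM untreated. IKZF2, an Ikaros family factor, fell to 5.70 and 2.48 TPM, against 19.1 and 17.8 TPM untreated (-2.01 ± 0.25, adjusted p = 0.000445). BCL11B, a factor of T lineage commitment, fell to 23.5 and 17.2 TPM, against 61.7 and 49.0 TPM untreated (-1.41 ± 0.20, adjusted p = 0.00126). The E protein genes, named here after their values were seen, were not called. TCF3 changed by -0.06 ± 0.31, TCF4 by -0.51 ± 0.27 (adjusted p = 0.526) and TCF12 by -1.21 ± 0.47 (adjusted p = 0.267). The ID2 relatives ID1 (0.73 ± 0.27) and ID3 (1.01 ± 0.37) were not called either. Without the 2 libraries that stood apart 6 regulators were higher and 8 lower, while the counts over all tested genes were 966 higher and 976 lower, against 435 and 266 with all libraries.

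Of 20 tested thymocyte stage genes, 6 fell and 2 rose in Jurkat, with a median of -0.89 against -0.03 for all tested genes. SH2D1A, the SLAM receptor adaptor, fell to 66.2 and 81.8 TPM in stimulated Jurkat, against 286 and 246 TPM in untreated Jurkat (-1.84 ± 0.18, adjusted p = 6.93e-05). MAL, a membrane sorting protein, fell to 57.7 and 42.2 TPM, against 139 and 152 TPM untreated, and CD8B, a coreceptor chain, fell to 1.28 TPM in both, against 5.21 and 5.39 TPM untreated. AQP3, a water and glycerol channel, rose to 416 and 326 TPM, against 120 and 124 TPM untreated. Without the 2 libraries that stood apart 12 were lower and 3 higher, under the same rise in calls over all genes.

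Pre-T receptor signalling and Notch genes had 4 of 18 higher and 1 lower in Jurkat (6 and 2 without the 2 libraries that stood apart). LAT, the adaptor of T cell receptor signalling, rose to 1451 and 1595 TPM, against 290 and 274 TPM untreated (2.43 ± 0.29, adjusted p = 0.000315), and NOTCH3 fell to 0.556 and 0.742 TPM, against 2.48 and 2.37 TPM untreated. Of 21 pre-B receptor and B progenitor genes, 1 rose and 2 fell (3 and 4 without those libraries): BACH2, a transcriptional repressor of the B lineage, rose to 35.8 and 29.5 TPM, against 4.199 and 3.78 TPM untreated (2.75 ± 0.17, adjusted p = 2.18e-06), the adaptor gene FYB fell to 82.2 and 92.0 TPM, against 182 and 184 TPM untreated, and the stem cell antigen CD34 fell to 1.17 TPM in both, against 3.37 and 2.97 TPM untreated. FYB is on this list but was 7.52 higher on the log2(TPM + 1) scale in untreated Jurkat than in untreated BJAB. CD34 also counts among the thymocyte stage genes above. None of 4 tested relatives of the surrogate light chain was called. Of these, the pseudogene IGLL3P had 3.10 and 1.78 TPM in stimulated Jurkat and 5.36 and 11.3 TPM in untreated Jurkat (-1.39 ± 0.38, adjusted p = 0.0675; called, at 0.0406, without those libraries), and CD79A, a signalling chain of the B cell receptor, had 139 and 119 TPM in stimulated Jurkat and 135 and 161 TPM in untreated Jurkat.

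**Figure D5:**
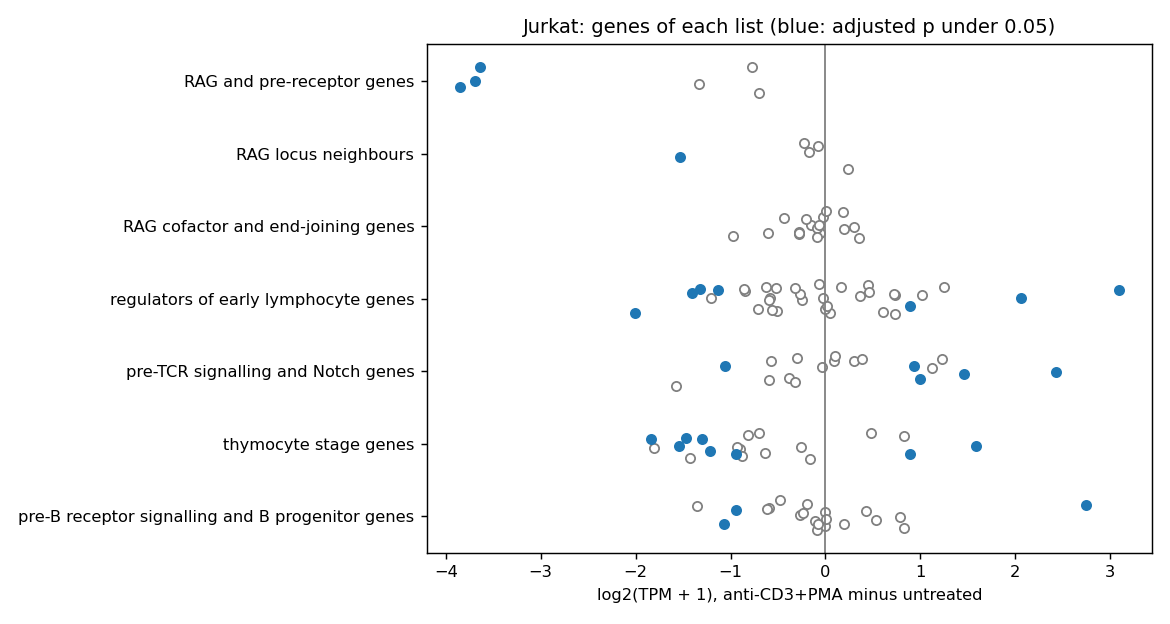
Change of each tested gene in Jurkat, anti-CD3+PMA minus untreated, in log2(TPM + 1), by list, without the activation genes; blue points passed the adjusted threshold of 0.05, and vertical scatter within a row has no meaning. RAG1, RAG2 and VPREB1 lie left of every gene of the lists plotted, whose lowest called value is -2.01 (IKZF2) and highest 3.10 (ID2).

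In stimulated against untreated BJAB, 6 of 22 activation genes rose and 1 fell (median 0.73 beside -0.14 for all tested genes). Without the 2 libraries that stood apart 11 were higher and 1 lower (median 1.07). In the same cells 3 regulators of early lymphocyte genes rose and 7 of the 35 fell. SATB1, a chromatin organiser, rose to 18.6 and 21.7 TPM in stimulated BJAB, against 0.522 and 1.11 TPM in untreated BJAB (3.56 ± 0.40, adjusted p = 0.000358). SPI1, the factor PU.1, fell to 0.910 and 6.70 TPM, against 34.96 and 23.9 TPM untreated, and ETS1 fell to 1.14 and 5.60 TPM, against 23.1 and 30.8 TPM untreated. SPIB, a relative of PU.1, fell to 15.3 and 60.8 TPM, against 173 and 222 TPM untreated. In each of these falls the first stimulated library, the one that stood apart, was the lower, and without it and its U937 counterpart the adjusted p-values were 0.00237, 0.00665 and 0.0392. Those values rest on 1 stimulated BJAB library, assumed to vary like the other groups. Pre-B receptor and B progenitor genes had 2 of 21 higher and 2 lower, among them the tetraspanin CD9, which rose to 248 and 361 TPM, against 71.0 and 59.7 TPM untreated, and CD79B, which had 321 and 1106 TPM stimulated and 3005 and 3082 TPM untreated and lost its call without the 2 libraries that stood apart (adjusted p = 0.0738). Germinal centre and mature B genes had 3 of 17 higher and 3 lower.

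The genes whose levels over the 16 libraries were most like each member are given by Pearson's r of log2(TPM + 1), as a description. The libraries of a line share their cells, so most of each value is the difference between lines. For RAG1 the closest were LINC01882 (r = 0.991), LINC01120 (0.980) and RAG2 (0.970), and for RAG2 the complement gene C9 (0.998), LINC01120 (0.995) and the olfactory receptor gene OR10R2 (0.995). LINC01882 averaged 0 in stimulated Jurkat and 9.08 TPM in untreated Jurkat, and C9 averaged 1.75 TPM in stimulated Jurkat and 17.1 TPM in untreated Jurkat. DNTT was closest to CD1B (0.999), an antigen-presenting molecule of cortical thymocytes, which averaged 128 TPM in stimulated Jurkat and 201 TPM in untreated Jurkat, then to FBLN2 and C10orf107 (0.998 each). For PTCRA the closest were E2F7 (0.985), GOLGA2 (0.978) and NRN1 (0.976). VPREB1 had no close match: IGLL3P was first at 0.843, with LINC01882 at 0.822 and KCNH2 at 0.818. IGLL1 was closest to FUNDC1 (0.980), SMIM24 (0.971) and COA1 (0.970), and VPREB3 to GFY (0.995), RASSF6 and LINC00487 (0.994 each).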

How the data were processed

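RNA-seq libraries were made by SmartSeq2 with oligo-dT priming, per the labels' protocols, and aligned with TopHat2 to hg19, per the submitters' processing notes. Versions, counting program and gene annotation were not given in the sources used here. Values were deposited by the authors in TPM, 1 file per library, from uniquely aligned reads; each library lists 27311 genes and sums to 1000000. The 16 libraries were put in 8 groups of 2 by line and treatment. The 7 genes and the gene lists were chosen with earlier results of these data known.

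Whole reads were recovered from the TPM steps (tolerance 0.001) for 17860 of the 19092 genes above 0 (93.5%); the other 1232 were above 0 in 1 library each. Values worth 2 reads (10443) were more frequent than values worth 1 read (8885), so reads are not independent. Intervals and floors (3 reads) treat them as independent and leave out the spread between libraries. Intervals can thus be too narrow, and floors too low, even for counting error.

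Genes at 1 TPM or more in 2 or more libraries (14398) were tested as log2(TPM + 1) with limma 3.58.1 (R 4.3.3), with 1 coefficient per group, a trend of spread with level, 8 residual and 3.18 prior degrees of freedom, two-sided, with Benjamini-Hochberg adjustment and a threshold of 0.05. The spread is pooled over lines, and the scale understates changes of low genes. The fit was tested on simulated data. Replicate numbers, shared within a line, are not said to mark a batch and were not used as a block. Named genes are the 7, the 3 closest to each by Pearson r with a group mean of at least 5 TPM, up to 4 called genes per list by size of change (with none called, the 2 of highest level), the RAG neighbours and lineage markers. One gene that this rule takes is not reported here. Transcript GC came from GENCODE v29 and relative length from the TPM steps, each in bins of 20% of genes. Alternatives were pseudocounts of 0.1 and 5, no filter and a minimum of 5 TPM, 2 scalings, no trend, a replicate block, the compared lines alone and each library left out; after the data were seen, library 1 of U937 after LPS and of stimulated BJAB were left out and voom was run on the recovered reads, which called 555 genes in Jurkat.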

Additional observations from a re-analysis of the deposited data

Results flagged for a closer look

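The test of the Jurkat response minus the BJAB response gave -3.69 for RAG1 and -3.64 for RAG2 on the log2(TPM + 1) scale. Both were at 0 in all BJAB libraries, so these values are their Jurkat changes and do not compare responses. A further 5 pairs of lines moved in opposite directions in every library, and none of these differences was tested. PTCRA changed by 0.28 in THP-1 after LPS, against -0.78 in Jurkat and -1.16 in BJAB, where it rested on 10 reads in all. VPREB1 changed by 1.16 in U937, on 6 reads, against -3.85 in Jurkat. IGLL1 changed by 0.70 in U937, where the higher library is the one that stood apart, against -1.33 in Jurkat and -0.91 in BJAB.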

How the results depend on the processing

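Of 270 counts of called genes recomputed under the alternatives, 252 stayed within 1.5 times and 18 did not; of 1485 values of single genes, 1428 kept direction and side of the threshold, 35 lost and 19 gained a call, and 3 turned sign. Calls for RAG1 and RAG2 in Jurkat held in 27 of 27 settings and VPREB1 in 26, IGLL1 was called in 8, DNTT in 2 and PTCRA in 1. RAG1 passed the filter through untreated Jurkat alone, so its calls are a description. The size depends on the scale: voom on the recovered reads gave -5.52 for RAG1, -4.12 for RAG2 and -5.19 for VPREB1. The count called in Jurkat was 3, but 6 at a pseudocount of 5 and 5 without library 1 of U937 after LPS and library 1 of stimulated BJAB. The count in BJAB was 1, but 0 at a pseudocount of 5, with no filter, with the BJAB libraries alone and with the replicate block. The difference between Jurkat and BJAB responses called 2, but 4 at a pseudocount of 5. Leaving out each library in turn gave 3 to 4 in Jurkat, 0 to 2 in BJAB, 0 to 0 in THP-1 and U937, 2 to 3 for the Jurkat minus BJAB response, 6 to 7 for untreated THP-1 and U937, 7 to 7 for untreated Jurkat, 6 to 6 for untreated BJAB and 5 to 6 for Jurkat against BJAB. In the difference of responses, PTCRA (0.38) was 2.82 and called at a pseudocount of 0.1 (adjusted p = 0.0480), turned to -0.31 at a pseudocount of 5 and ran from -0.11, without the second untreated BJAB library, to 0.88 with a library left out, and IGLL1 (-0.43) from -0.95 to 0.10, the last without the second stimulated BJAB library; the cause was not tested. Median-of-ratios scaling moved the median of all genes to 0, against -0.25 in U937 and -0.14 in BJAB as reported.

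With the replicate number as a block, RAG1 (adjusted p = 0.0001), RAG2 (0.000185) and VPREB1 (0.0144) were still called in Jurkat, the RAG1 value again being a description. In that fit PTCRA in BJAB (0.0887) and IGLL1 in untreated U937 (0.0557) lost their calls. Deviations of same-numbered libraries correlated at -0.04 to 0.14 with 2 pairs a line. As each group holds 2 libraries, deviations from a group mean mirror each other, and these pairs are not independent. The correlations therefore cannot decide whether the numbers pair the samples. Counts of a few reads or none limit VPREB1 in stimulated Jurkat and in the other lines, and PTCRA in BJAB.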
